A study of Mus musculus with 12 samples.

Results

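The genes described here were 10 regulators of cardiac energy metabolism, namely the 3 PPAR receptors (Ppara, Ppard and Pparg), the 3 estrogen-related receptors or ERRs (Esrra, Esrrb and Esrrg), the PGC-1 coactivators Ppargc1a and Ppargc1b, and the factors Nrf1 and Tfam. They were taken by gene symbol from the 51826 entries of the count table, and each symbol had exactly 1 entry. Poly(A) RNA was sequenced from atria and ventricles of the same 6 female FvB mice at 10 weeks of age, giving 12 libraries, 3 in each of 4 groups. CUG960 +dox mice (TREDT960I(H)/MHCrtTA(hemi), mice V119, V120 and V123) carried a tetracycline-responsive transgene with expanded, interrupted CUG repeats in human DMPK exons, and MHCrtTA +dox controls (MHCrtTA(hemi), mice V327, V333 and V334) lacked it. Both groups carried MHCrtTA, in which the αMHC promoter drives the reverse tetracycline transactivator in cardiomyocytes, and both were fed doxycycline from postnatal day 1 (PN1). The model therefore expresses the repeat in cardiomyocytes of a heart that also holds other cell types, and dox and transactivator do not separate the groups.

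Depth was between 116127966 and 160676189 counts per library. The lowest count of any of the 10 genes was 360, for Pparg in the atria of V123. The part of counting error in the spread between 3 mice was not tested for each gene. All 10 atrial cardiomyocyte markers were higher in atria and all 10 ventricular markers were higher in ventricles in both genotypes, as the tissue labels state. The most abundant of these were Nppa among the atrial markers and Myl2 among the ventricular markers. Control mouse V327 stood apart in Pdk4. Its level of this gene, which encodes a kinase that inhibits pyruvate dehydrogenase, was 667 CPM (counts scaled to library size) in atria and 1000.02 CPM in ventricles, whereas the other controls had 133 and 199.8 CPM in atria and 239 and 389.7 CPM in ventricles. Among control atria, V334 had the highest summed level of macrophage and leukocyte markers (727 CPM, against 385 and 339) and of erythroid markers (2766 CPM, against 514 and 323).

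PPARs are nuclear receptors that are activated by fatty acids and bind DNA as heterodimers with retinoid X receptors (RXRs). ERRs are orphan nuclear receptors that bind an extended form of the same receptor site without a known natural ligand and act on genes of oxidative phosphorylation, the tricarboxylic acid (TCA) cycle and fatty acid oxidation. PGC-1α and PGC-1β, encoded by Ppargc1a and Ppargc1b, do not bind DNA themselves and coactivate both receptor families. NRF1 activates nuclear genes for mitochondrial proteins, including Tfam, which encodes the factor that packages and transcribes mitochondrial DNA. In heart, PPARα, ERRα, ERRγ and PGC-1α are known for their place in the program of mitochondrial fuel use.

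In the GRCm38 build (GENCODE M21), all 10 are protein-coding genes. Ppara lies at chr15:85734983-85802819, Ppard at chr17:28232700-28301474 and Pparg at chr6:115360951-115490399, all on the forward strand. Esrra lies at chr19:6910977-6921813 on the reverse strand, and Esrrb at chr12:86361117-86521628 and Esrrg at chr1:187608791-188214885 are on the forward strand. Ppargc1a lies at chr5:51454250-51567726 on the reverse strand, Nrf1 at chr6:30047988-30153458 on the forward strand and Tfam at chr10:71225464-71238280 on the reverse strand. Esrra overlaps the protein-coding gene Trmt112 on the opposite strand, and Pparg and Esrrg overlap annotated antisense RNAs. The libraries were stranded, but whether the counting used strand is not given in the sources used here, so reads of overlapping genes may not have been kept apart.

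The promoter windows of Esrrb and Esrrg are shown because these receptors were higher in CUG960 ventricles, and that of Pparg because it differed most between chambers in control hearts. Each window runs from 250 bases before to 50 after a RefSeq start site (GRCm38.p6) and is the one nearest the 5′ end of the gene model. Capitals mark the nuclear receptor core site AGGTCA, the GC box GGGCGG, the NRF1 core GCATGCGC or the TATA letters TATAAA, each searched on both strands.
Esrrb, chr12:86360867-86361166, forward strand: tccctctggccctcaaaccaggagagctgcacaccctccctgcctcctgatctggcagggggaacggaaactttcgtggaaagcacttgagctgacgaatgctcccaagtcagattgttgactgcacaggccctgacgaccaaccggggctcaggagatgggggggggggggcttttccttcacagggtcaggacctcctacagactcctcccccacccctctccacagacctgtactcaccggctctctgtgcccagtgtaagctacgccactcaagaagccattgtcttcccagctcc
Esrrg, chr1:187608756-187609055, forward strand: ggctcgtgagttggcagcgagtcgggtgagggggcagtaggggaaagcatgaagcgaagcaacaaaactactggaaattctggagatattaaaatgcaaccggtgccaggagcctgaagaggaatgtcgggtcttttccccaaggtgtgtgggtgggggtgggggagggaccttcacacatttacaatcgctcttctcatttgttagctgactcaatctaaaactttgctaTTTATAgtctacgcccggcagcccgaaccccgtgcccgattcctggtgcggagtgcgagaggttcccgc
Pparg, chr6:115360894-115361193, forward strand: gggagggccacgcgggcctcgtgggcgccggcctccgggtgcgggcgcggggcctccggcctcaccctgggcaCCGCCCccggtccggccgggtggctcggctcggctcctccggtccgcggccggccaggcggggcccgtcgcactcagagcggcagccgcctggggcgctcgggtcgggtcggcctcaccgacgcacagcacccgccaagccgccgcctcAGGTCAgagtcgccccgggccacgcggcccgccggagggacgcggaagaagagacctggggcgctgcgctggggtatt
The Esrrb window holds none of these letters, the Esrrg window holds TATAAA on the other strand, and the Pparg window holds AGGTCA and, on the other strand, GGGCGG. Gene counts do not say which start site was used, and RefSeq lists 2 windows for Esrrb, 4 for Esrrg and 3 for Pparg. Over the 16 windows found for 9 of the 10 genes, AGGTCA was in 12.5%, against 16.3% of all 32851 windows, GCATGCGC in 12.5% (1 window each of Ppara and Esrra) against 2.71%, and GGGCGG in 56.2% against 35.7%. The ERR element TCAAGGTCA, which contains AGGTCA, was in 0 of the 16 windows and in 0.423% of all windows. Among the pathway genes below it was in the window of 1, Sdhd, a subunit of succinate dehydrogenase. These are matches of letters and not measured binding sites.

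Levels of different genes were compared as CPM per kb of merged exons. Esrra, encoding ERRα, had the highest level in each of the 4 groups, from 22.7 ± 1.44 (SD, n = 3) in CUG960 atria to 28.3 ± 2.06 in control ventricles. Ppargc1a was next in each group, between 12.9 ± 1.47 in CUG960 ventricles and 14.2 ± 1.72 in control atria. Tfam, Esrrg and Esrrb did not separate in CUG960 ventricles, at 10.6 ± 0.31, 11.0 ± 0.89 and 10.3 ± 0.80. In control ventricles Esrrb was lower, at 6.47 ± 0.58, than Esrrg at 8.27 ± 0.73 and Tfam at 10.8 ± 0.61. Ppara and Ppard were at 5.57 ± 1.67 and 4.69 ± 0.40 in control ventricles. The lowest levels were those of Nrf1, Pparg and Ppargc1b, with group means of at most 3.30 CPM per kb. The order below Esrra depends on the gene length used. Per kb of the longest transcript, Esrrb ranked second in CUG960 ventricles, at 14.5, ahead of Ppargc1a at 13.1, and Ppard was above Ppara in each group, for example at 8.90 ± 0.32 against 5.42 ± 0.20 in control atria (SD, n = 3).

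**Figure D1:**
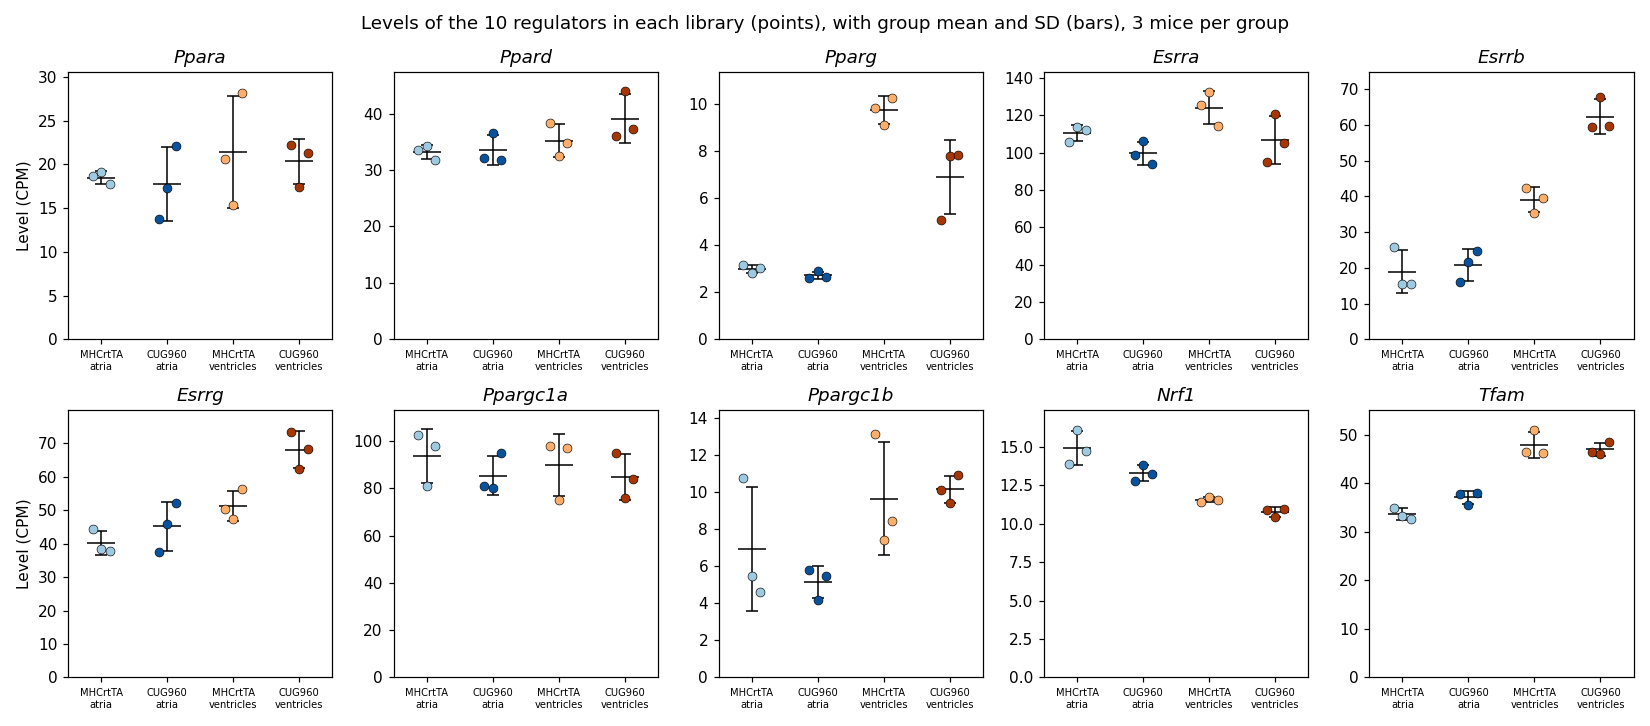
Level of each regulator in CPM (y axis, from 0, own scale per panel) in the 4 groups (x axis), with 1 point per library and bars for the group mean and SD of 3 mice. Esrrb and Esrrg sit higher in CUG960 ventricles than in every other library, Pparg is lower in atria than in ventricles in both genotypes, and Ppargc1a spreads over the same range in all groups.

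The first question was how the regulators differ between CUG960 and control mice. In ventricles, 2 of the 10 rose, Esrrb and Esrrg, and none fell. In atria, 0 of the 10 changed by edgeR or DESeq2, where DESeq2 called 20.1% of all genes in atria and 15.2% in ventricles. Across all genes tested by edgeR, 9.94% passed in ventricles and 14.6% in atria at an adjusted P value under 0.05, and 4.75% and 5.49% also had a fold change of at least 1.5, which 1 of the 10, Esrrb, reached in ventricles. At an unadjusted P value under 0.05, 2 of the 10 (Esrra and Tfam) passed in atria and 3 (Esrrb, Esrrg and Pparg) in ventricles, against 30.2% and 25.7% of all genes tested, so that neither count stands out from the background. The groups did not overlap for 4 of the 10 in ventricles and 2 in atria, and for 31.2% and 35.7% of all genes tested. Of 10 ventricular cardiomyocyte markers, 2 rose and 1 fell in CUG960 ventricles, and 8 had a positive log2 fold change (median 0.16). Of 10 general cardiomyocyte markers, 1 rose and 1 fell (median −0.05), and 5 of 10 endothelial markers fell (median −0.38). Their part in the Esrrb and Esrrg values was not tested.

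Esrrb encodes ERRβ, the receptor of this family best known from embryonic stem cells and placenta. Its levels in control ventricles were 42.4, 35.4 and 39.5 CPM (V327, V333 and V334), and in CUG960 ventricles 59.4, 67.9 and 59.8 CPM (V119, V120 and V123). Every CUG960 ventricle was above every control ventricle, 1.596-fold on average (log2 fold change 0.67, SE 0.09, 95% interval 0.47 to 0.88, edgeR adjusted P = 0.00231). Leaving out each mouse in turn kept the log2 fold change between 0.61 and 0.74 with an adjusted P value of at most 0.0118. In atria the levels overlapped. Control atria had 26.0, 15.4 and 15.4 CPM and CUG960 atria 15.95, 21.7 and 24.7 CPM, a log2 fold change of 0.14 (95% interval −0.38 to 0.65). V327 was the high control, and without it the atrial value was 0.43 with an adjusted P of 0.162 by edgeR.

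Esrrg encodes ERRγ, which is known for driving the postnatal switch to oxidative metabolism in heart. Control ventricles had 50.3, 47.4 and 56.3 CPM and CUG960 ventricles 73.4, 62.4 and 68.2 CPM. The ranges did not overlap and the mean was 1.33-fold higher (log2 fold change 0.41, SE 0.09, 95% interval 0.20 to 0.61, edgeR adjusted P = 0.0238). This call is less firm than that of Esrrb. The adjusted P value was 0.0910 without V327, 0.0598 without V333, 0.0853 without V119 and 0.0700 without V123, with log2 fold changes between 0.35 and 0.48 over the 6 fits that left out 1 mouse. Control atria had 44.4, 38.4 and 37.8 CPM and CUG960 atria 37.6, 45.8 and 52.1 CPM, and these overlapped, with a log2 fold change of 0.17 (95% interval −0.10 to 0.44).

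Esrra did not pass in either tissue. Control ventricles had 126, 132 and 115 CPM and CUG960 ventricles 95.05, 121 and 105 CPM (log2 fold change −0.21, 95% interval −0.44 to 0.01, edgeR adjusted P = 0.211). In atria the log2 fold change was −0.15 (95% interval −0.30 to −7.17e-05, edgeR adjusted P = 0.165). Of the summed ERR mRNA per kb, Esrrb and Esrrg together made up between 30.9% and 37.4% in control ventricles and between 43.6% and 49.98% in CUG960 ventricles. Per kb of the longest transcript the means were 27.3% ± 2.84 and 38.9% ± 2.87 (SD, n = 3). The corresponding shares in atria overlapped, at 25.2% to 32.2% in controls and 27.9% to 36.8% in CUG960 mice. The pair joins the receptors that rose in ventricles. Its share there comes from the same libraries as those calls and is not a separate result. Whether the share differed between genotypes or between tissues was not tested.

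**Figure D2:**
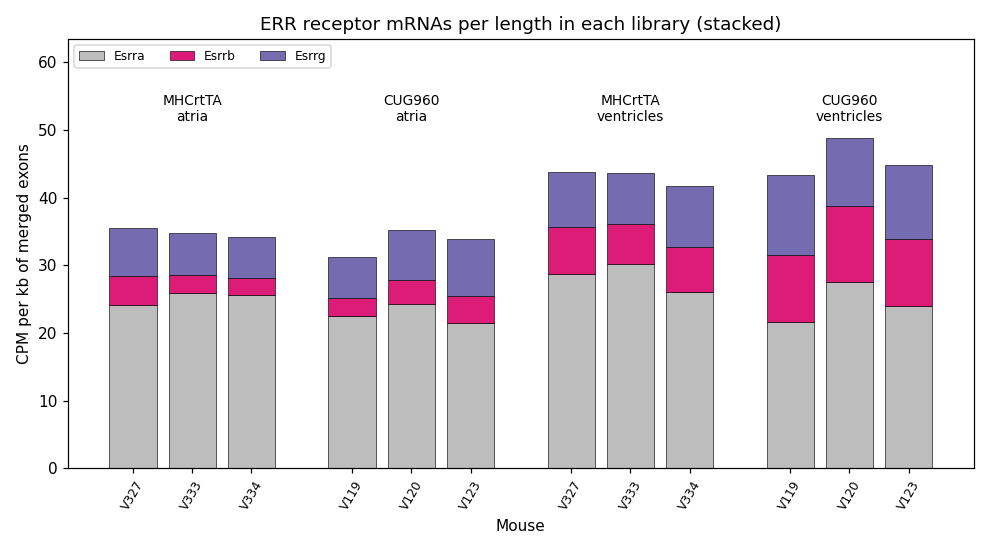
Stacked bars of the 3 ERR mRNAs in each library, in CPM per kb of merged exons (y axis, from 0), by mouse (x axis) and group. Esrra is the largest part of each bar, and the Esrrb and Esrrg parts are larger in the 3 CUG960 ventricles than in the 3 control ventricles.

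Pparg encodes PPARγ, known as the regulator of fat cell differentiation and present in heart at low levels. Its ventricular levels were 9.86, 9.11 and 10.3 CPM in controls and 5.08, 7.78 and 7.84 CPM in CUG960 mice. The CUG960 ventricles were all below the controls and V119 was the lowest, but the difference did not pass (log2 fold change −0.50, SE 0.16, 95% interval −0.86 to −0.13, edgeR adjusted P = 0.0860). DESeq2 gave an adjusted P value of 0.0218, edgeR with no filter on low counts 0.0290 and edgeR over all 12 libraries at once 0.0376. Pparg passed in 0 of the 6 fits that left out 1 mouse, which gave adjusted P values of up to 0.194 and log2 fold changes from −0.60 to −0.32, the last without V119. In atria the levels were 3.14, 2.81 and 3.04 CPM in controls and 2.60, 2.89 and 2.65 CPM in CUG960 mice, which overlapped.

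Adipocyte markers were also lower in CUG960 ventricles. Of 8 tested there, of 10 listed, 3 (Plin1, Retn and Cfd) fell and all 8 had a negative log2 fold change, with a median of −1.53. In atria 0 of 9 tested passed, 8 of 9 were negative and the median was −1.05. The summed level of all 10 was 77.8, 65.9 and 63.6 CPM in control ventricles and 43.3, 54.7 and 51.4 CPM in CUG960 ventricles. The most abundant was Lipe, which heart muscle also expresses, whereas Plin1, a coat protein of fat droplets in adipocytes, was at or under 1.35 CPM in all ventricles. Ucp1 had 0 counts in some libraries. Endothelial markers were also lower, with 5 of 10 falling in ventricles and 4 of 10 in atria. In atria 5 of 10 fibroblast markers also fell. Over all genes tested, 4.2% fell in ventricles and 6.62% in atria. In bulk RNA, fewer cells of a type and less RNA per cell cannot be told apart, and the part of either cell type in the Pparg values was not tested.

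Ppara encodes PPARα, the main PPAR of fatty acid oxidation in heart. Control ventricles had 20.6, 15.4 and 28.1 CPM and CUG960 ventricles 22.2, 17.4 and 21.4 CPM, so the CUG960 values lay inside the control range. The log2 fold change was −0.07 (95% interval −0.50 to 0.36) in ventricles and −0.06 (95% interval −0.41 to 0.28) in atria. Neither interval excludes a change in either direction. Ppard, encoding the broadly expressed PPARδ, was measured more tightly, with log2 fold changes of 0.15 (95% interval −0.07 to 0.38) in ventricles and 0.01 (95% interval −0.15 to 0.18) in atria.

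Ppargc1a had 98.1, 74.9 and 96.9 CPM in control ventricles and 95.04, 75.7 and 84.0 CPM in CUG960 ventricles. The groups overlapped, with a log2 fold change of −0.08 (95% interval −0.35 to 0.19), and in atria it was −0.14 (95% interval −0.37 to 0.10). Ppargc1b was the most variable regulator among controls, with 1 high mouse. Control atria had 10.8, 5.47 and 4.62 CPM and control ventricles 13.1, 7.40 and 8.45 CPM, and V327 was the highest in both chambers. CUG960 mice were closer together, at 5.81, 4.20 and 5.49 CPM in atria and 10.1, 9.42 and 10.9 CPM in ventricles. The log2 fold change with genotype in atria was −0.43 with all mice and 0.03 without V327, and in ventricles it was 0.07 and 0.36, and it did not pass in any of these edgeR fits.

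Nrf1 and Tfam differed little. Nrf1 was at 11.4, 11.7 and 11.6 CPM in control ventricles and at 10.9, 10.4 and 11.0 CPM in CUG960 ventricles, and the ranges did not overlap although the difference was small (log2 fold change −0.10, 95% interval −0.30 to 0.09, edgeR adjusted P = 0.502). In atria it was also lower in each CUG960 library, by 0.17 on the log2 scale (95% interval −0.35 to 0.01, edgeR adjusted P = 0.190). Tfam was higher in each CUG960 atrial library, at 37.9, 35.5 and 37.9 CPM against 34.99, 33.3 and 32.6 CPM in controls (log2 fold change 0.14, 95% interval 0.01 to 0.28, edgeR adjusted P = 0.150). In ventricles Tfam overlapped between the groups, with a log2 fold change of −0.03 (95% interval −0.19 to 0.14).

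**Figure D3:**
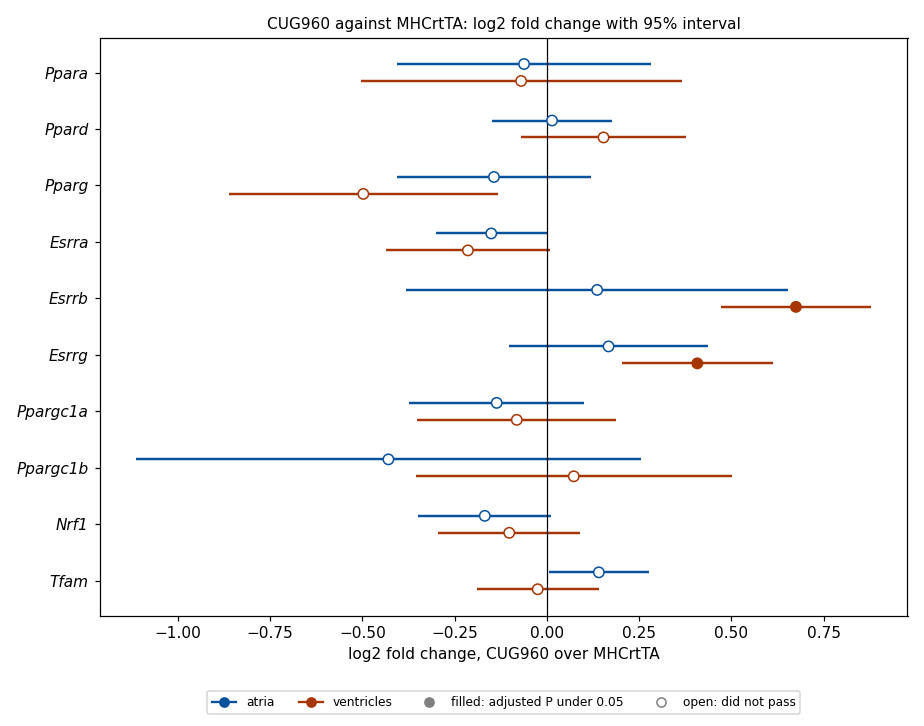
Log2 fold change of CUG960 over MHCrtTA (x axis) for each regulator (y axis) in atria and in ventricles, with lines for the 95% interval and filled points for an adjusted P value under 0.05. Only Esrrb (0.67) and Esrrg (0.41) in ventricles are filled, and the interval of Pparg in ventricles (−0.86 to −0.13) also lies to the left of 0.

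Whether the change with genotype differed between tissues was tested by an interaction term in a fit of all 12 libraries. None of the 10 regulators passed, against 1.38% of all genes tested, and 0 had an unadjusted P value under 0.05, against 12.3% of all genes. DESeq2 also called 0 of the 10, against 3.60% of all genes. For Esrrb the change in atria was 0.54 lower on the log2 scale than in ventricles, with a 95% interval of −1.13 to 0.05 and an unadjusted P of 0.0699 (edgeR adjusted P = 0.464). For Esrrg the difference was −0.24 (95% interval −0.59 to 0.11), and for Pparg it was 0.36 (95% interval −0.09 to 0.80). The passing of Esrrb and Esrrg in ventricles and not in atria was thus not shown to be a difference between the tissues.

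The second question was how the regulators are distributed between the chambers. In control hearts 4 of the 10 (Pparg, Esrrb, Esrrg and Tfam) were lower in atria than in ventricles and 1, Nrf1, was higher. In CUG960 hearts 5 were lower (the same 4 and Ppargc1b) and Nrf1 was again higher. Chamber differences were common, since 55.7% of all genes tested passed in controls and 54.2% in CUG960 mice. A fold change of at least 1.5 was reached by 2 of the 10 (Pparg and Esrrb) in controls and by 4 (Pparg, Ppargc1b, Esrrb and Esrrg) in CUG960 mice, against 34.9% and 33.6% of all genes. The chambers did not overlap for 6 of the 10 in each genotype, against 64.6% of all genes in controls and 62.6% in CUG960 mice.

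Pparg had the largest chamber difference among the 10 in control hearts. From the levels given above, control atria had between 2.81 and 3.14 CPM and control ventricles between 9.11 and 10.3 CPM, 3.26-fold higher in ventricles (log2 fold change, atria over ventricles, −1.71, SE 0.10, edgeR adjusted P = 3.14e-06). In CUG960 hearts ventricles were 2.56-fold higher (log2 fold change −1.36, SE 0.17, edgeR adjusted P = 0.000166). Esrrb was 2.07-fold higher in ventricles of control mice (log2 fold change −1.05, SE 0.20, edgeR adjusted P = 0.00207) and 3.03-fold higher in ventricles of CUG960 mice (log2 fold change −1.60, SE 0.15, edgeR adjusted P = 2.06e-05). The order of these genes by chamber difference was therefore Pparg and then Esrrb in controls and the reverse in CUG960 mice, but their 95% intervals overlapped in controls (−1.93 to −1.48 for Pparg and −1.50 to −0.60 for Esrrb) and in CUG960 mice (−1.75 to −0.97 and −1.93 to −1.27).

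Esrrg was lower in atria by 0.36 on the log2 scale in controls (95% interval −0.56 to −0.15) and by 0.60 in CUG960 mice (95% interval −0.87 to −0.34). Without V334, the control value was −0.24 with an edgeR adjusted P of 0.0750. Tfam was at 46.4, 51.0 and 46.3 CPM in control ventricles, above all control atria (log2 fold change −0.52, SE 0.07, edgeR adjusted P = 0.000297), and the difference in CUG960 mice was −0.36 (SE 0.07, edgeR adjusted P = 0.00164). Nrf1 went the other way, from 13.9, 16.1 and 14.7 CPM in control atria to 11.4, 11.7 and 11.6 CPM in control ventricles (log2 fold change 0.36, SE 0.08, edgeR adjusted P = 0.00555). In CUG960 mice the Nrf1 difference was 0.29 (SE 0.08, edgeR adjusted P = 0.0137), with an adjusted P of 0.0991 and a value of 0.25 without V120 and 0.0569 and 0.31 without V123.

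Ppargc1b was lower in the atrium than in the ventricle of each of the 6 mice. In CUG960 hearts the ventricles were 1.98-fold higher (log2 fold change −0.99, SE 0.14, edgeR adjusted P = 0.000257). In controls the value was −0.48 and did not pass (SE 0.33, edgeR adjusted P = 0.248). With the mouse as a replicate block, which compares the tissues within each mouse, it passed at −0.53 (edgeR adjusted P = 0.00752), and without V327 it was −0.66 (adjusted P = 0.0163). Ppard in CUG960 hearts also passed only with the block, at −0.23 (edgeR adjusted P = 0.0211), and without the block it had −0.24 with an adjusted P of 0.0626. The levels of Ppara, Esrra and Ppargc1a did not pass between chambers in either genotype.

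Ppargc1a had the smallest chamber difference of the 10, at 0.06 (95% interval −0.23 to 0.34) in controls and −0.01 (95% interval −0.24 to 0.22) in CUG960 mice. Its sign in CUG960 mice turned with upper quartile scaling, with both other filters, in the fit of all libraries together and without V119, and not with RLE scaling or DESeq2. Chamber differences in bulk tissue can also hold differences in cell makeup. The summed level of 10 macrophage and leukocyte markers was between 339 and 727 CPM in control atria and between 153 and 195 CPM in control ventricles, with 9 of 10 higher in atria, and Lyz2 was the most abundant. The summed level of 10 cardiomyocyte markers was between 44278 and 45776 CPM in control atria and between 60492 and 64136 CPM in control ventricles, and 7 of these 10 were lower in atria. Fibroblast markers, of which Dcn was the most abundant, were higher in control atria for 8 of 10. Over all genes tested, 28.3% were higher and 27.5% lower in control atria. Adipocyte markers had median log2 fold changes, atria over ventricles, of 0.76 in controls and 1.29 in CUG960 mice, with 7 of 9 positive in each. Endothelial markers had medians of −0.40 and −0.48, with 7 of 10 negative in each. The part of these cell types in the chamber differences was not tested.

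**Figure D4:**
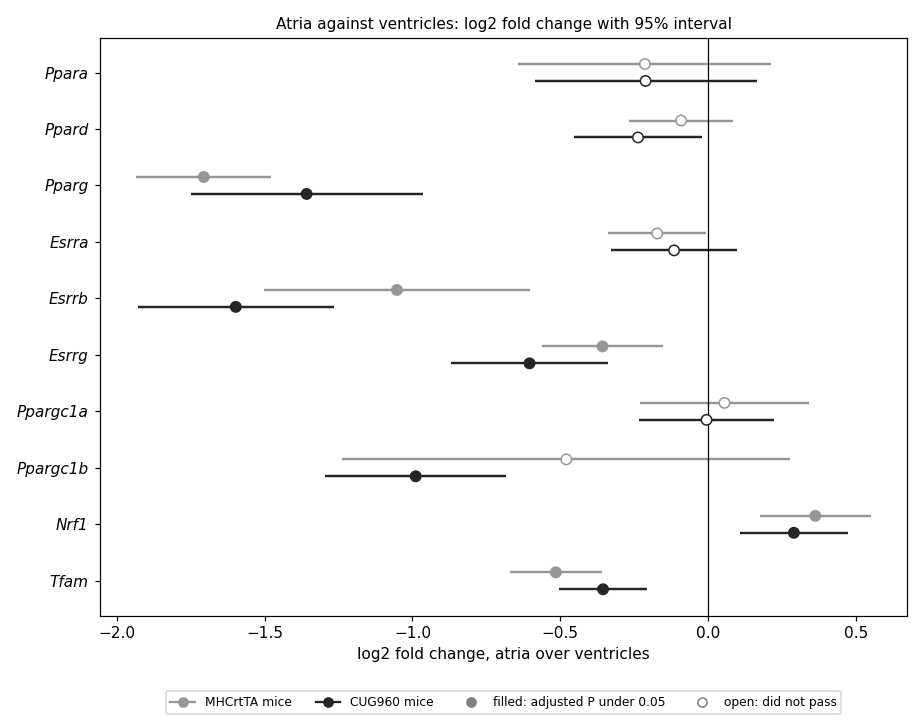
Log2 fold change of atria over ventricles (x axis) for each regulator (y axis) in MHCrtTA and in CUG960 mice, with lines for the 95% interval and filled points for an adjusted P value under 0.05. Pparg (−1.71 and −1.36) and Esrrb (−1.05 and −1.60) lie farthest to the left, and Nrf1 (0.36 and 0.29) is the regulator filled on the right of 0.

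Genes on which these factors are known to act were read from lists written from general knowledge, with earlier results of these data already known. The lists are therefore not independent of these data. In ventricles of CUG960 mice, 6 of 35 fatty acid genes tested fell and 0 rose, where 9.94% of all genes passed in either direction, 32 of the 35 had a negative log2 fold change, and the median was −0.27 against −0.01 over all genes tested. The genes that fell were Pdk4, Ucp2, Plin5, Acadvl, Cd36 and Hadhb. The list holds targets of these factors besides fatty acid enzymes, such as Pdk4 and Ucp2. The adipocyte markers (median −1.53, 8 of 8 negative) and endothelial markers (median −0.38, 10 of 10 negative) were lower in the same ventricles, and their part in these values was not tested. In atria 2 rose and 2 fell, where 14.6% of all genes passed in either direction, and the median was 0.03. For the interaction of tissue and genotype, 0 of the 35 passed, against 1.38% of all genes tested, and 33 values were positive (median 0.28). A difference between the tissues was thus not shown for any of these genes. The ventricular count rests on few mice. It was 10 by DESeq2, which called 15.2% of all genes in ventricles in either direction. By edgeR it was 0 without V327, 1 without V119, and between 3 and 5 without each of the other mice. The direction of the median and the rise of Esrrb and Esrrg in the same ventricles are 2 measurements on the same 6 libraries, and no relation between them was tested.

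Plin5 encodes a lipid droplet protein that tethers droplets to mitochondria and is a known PPAR target. It had 148, 146 and 125 CPM in control ventricles and 62.3, 99.7 and 85.7 CPM in CUG960 ventricles. Every CUG960 ventricle was lower, by 0.76 on the log2 scale (SE 0.15, edgeR adjusted P = 0.0158), and in atria Plin5 fell by 0.56 (SE 0.12, edgeR adjusted P = 0.0174). Without V327 these were −0.71 (adjusted P = 0.0558) and −0.47 (adjusted P = 0.0515). Pdk4 in ventricles fell by 2.10 on the log2 scale (SE 0.49, edgeR adjusted P = 0.0274), from levels of 1000.02, 239 and 389.7 CPM to 86.6, 192 and 101 CPM. Its value was −1.31 (adjusted P = 0.0538) without V327, −1.89 (adjusted P = 0.0880) without V119 and −1.96 (adjusted P = 0.0783) without V123.

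Ucp2, which encodes a mitochondrial carrier, fell in both tissues, by 0.96 on the log2 scale in atria (SE 0.19, edgeR adjusted P = 0.0155) and by 0.81 in ventricles (SE 0.19, edgeR adjusted P = 0.0268). Acadvl, the very long-chain acyl-CoA dehydrogenase of β-oxidation, fell by 0.42 in ventricles (SE 0.11, edgeR adjusted P = 0.0403). In atria the genes that rose were Ehhadh, a peroxisomal enzyme of fatty acid oxidation, at 0.47 (SE 0.13, edgeR adjusted P = 0.0488), and Eci1, the mitochondrial enoyl-CoA isomerase, at 0.27 (SE 0.07, edgeR adjusted P = 0.0342). Each of these calls was lost in at least 1 alternative. Ucp2 in atria had an adjusted P value of 0.0520 without V327 (log2 fold change −0.86), and in ventricles its adjusted P lay between 0.0514 and 0.0929 without V327, V333, V119 or V123. Acadvl lost its call without any mouse but V334, at up to 0.121, Ehhadh without any but V120, at up to 0.130, and with RLE scaling, at 0.0509, and Eci1 without any but V327, at up to 0.126. None of these values changed sign in any alternative.

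**Figure D5:**
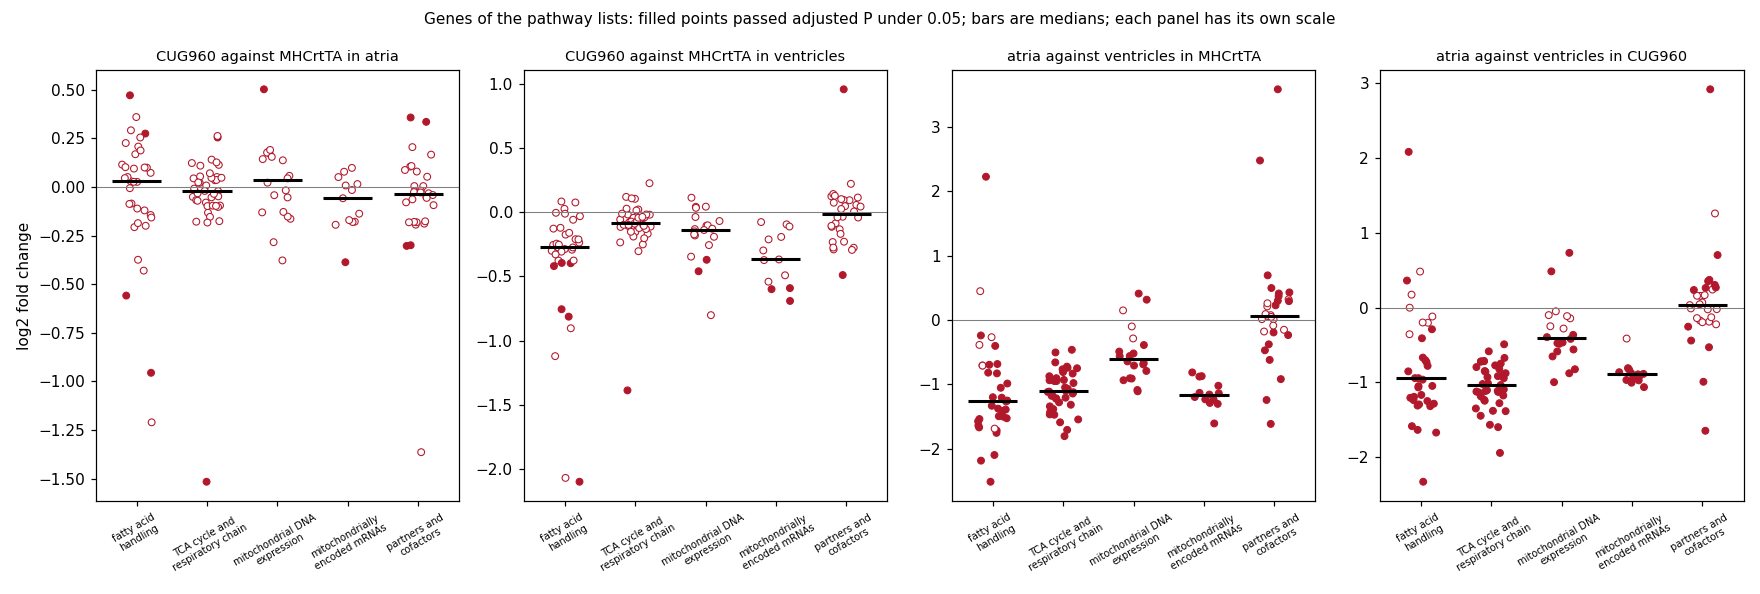
Log2 fold change (y axis, own scale per panel) of the genes of 5 lists (x axis) in 4 comparisons, with 1 point per gene, filled where the adjusted P value was under 0.05, and a bar for the median of the list. In CUG960 ventricles the fatty acid bar is at −0.27 with most points below 0, and in both genotypes nearly all points of the fatty acid, TCA cycle and mitochondrially encoded lists lie below 0 between atria and ventricles.

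Genes of the TCA cycle and respiratory chain, which are the best known ERR targets, passed in few cases with genotype. The list of 40 also holds other mitochondrial genes, among them Ckmt2, Slc25a4, Mfn1 and Mfn2. In ventricles 1 of 40 fell, 0 rose and the median was −0.08, and in atria 1 rose, 1 fell and the median was −0.02, both counts below the 9.94% and 14.6% of all genes. The log2 fold change was negative for 33 of the 40 in ventricles and for 22 in atria. DESeq2 called 1 higher and 3 lower in ventricles and 2 higher and 4 lower in atria, against 15.2% and 20.1% of all genes. The gene that fell in both tissues was Ckmt2, the sarcomeric mitochondrial creatine kinase. It had 636, 588 and 696 CPM in control atria and 202, 241 and 228 CPM in CUG960 atria, and 2163, 2494 and 2036 CPM in control ventricles and 728, 996 and 831 CPM in CUG960 ventricles. It was 2.86-fold lower in atria (log2 fold change −1.52, SE 0.09, edgeR adjusted P = 6.77e-05) and 2.62-fold lower in ventricles (log2 fold change −1.39, SE 0.13, edgeR adjusted P = 0.000337), with no overlap in either. Suclg2, a subunit of succinyl-CoA ligase, rose by 0.25 in atria (SE 0.06, edgeR adjusted P = 0.0216), and its adjusted P was between 0.0534 and 0.0948 without V333, V334, V119 or V120.

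Of 20 genes for the upkeep and expression of mitochondrial DNA, where TFAM acts, 2 fell in ventricles and 1 rose in atria, near and below the 9.94% and 14.6% of all genes called in either direction, and 4.2% of all genes fell in ventricles. There 16 of the 20 were negative with a median of −0.13, against −0.01 over all genes tested, and in atria the median was 0.03. For the interaction 0 of the 20 passed, against 1.38% of all genes tested, and 17 values were positive (median 0.24). DESeq2 called 4 lower in ventricles, where it called 15.2% of all genes in either direction. Lrpprc, which stabilizes mitochondrial mRNAs, fell by 0.37 in ventricles (SE 0.07, edgeR adjusted P = 0.0149), and Top1mt, the mitochondrial topoisomerase, by 0.46 (SE 0.12, edgeR adjusted P = 0.0372). Polg2, the accessory subunit of the mitochondrial DNA polymerase, rose by 0.50 in atria (SE 0.12, edgeR adjusted P = 0.0277). Lrpprc had an adjusted P of 0.0603 without V327 and 0.0505 without V119, Top1mt lost its call without any of the 6 mice (up to 0.114), and Polg2 without any but V120 (up to 0.0946). The 13 mitochondrially encoded mRNAs all had negative log2 fold changes in ventricles, with a median of −0.37. Of them, 3 fell by edgeR and 7 by DESeq2, which called 9.94% and 15.2% of all genes in either direction. The adipocyte and endothelial markers described above were lower in the same ventricles, and their part in these values was not tested. Those called by edgeR were mt-Nd1 (−0.69, SE 0.12, edgeR adjusted P = 0.00986), mt-Co2 (−0.60, SE 0.16, edgeR adjusted P = 0.0458) and mt-Nd2 (−0.59, SE 0.13, edgeR adjusted P = 0.0208).

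In levels, mt-Nd1 had between 15423 and 18510.3 CPM in control ventricles and between 9156 and 11490.4 CPM in CUG960 ventricles, without overlap. The summed level of the 13 was between 232220 and 240195 CPM in control ventricles and between 166246 and 199789 CPM in CUG960 ventricles. In atria mt-Nd1 fell by 0.39 (SE 0.07, edgeR adjusted P = 0.0113) and the median of the 13 was −0.06. For the interaction 0 of the 13 passed, against 1.38% of all genes tested, and 11 values were positive (median 0.31). Without V327 the ventricular count was 1, and mt-Nd2 was then at −0.53 (edgeR adjusted P = 0.0888). The call of mt-Co2 was lost without any mouse but V334, at an adjusted P of up to 0.147.

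Among 30 binding partners and cofactors, 2 rose and 2 fell in atria and 1 rose and 1 fell in ventricles. These counts are below the 14.6% and 9.94% of all genes and do not set the list apart. DESeq2 called 5 in atria and 4 in ventricles, against 20.1% and 15.2% of all genes. In atria Rxrg rose by 0.36 (SE 0.08, edgeR adjusted P = 0.0279) and Thrb, a thyroid hormone receptor, by 0.33 (SE 0.08, edgeR adjusted P = 0.0288). Perm1, a muscle regulator downstream of PGC-1 and ERR, fell by 0.30 (SE 0.07, edgeR adjusted P = 0.0327), and Gabpb2, a subunit of the factor also called NRF2, fell by 0.30 (SE 0.06, edgeR adjusted P = 0.0181). In ventricles Nr4a1, an early response nuclear receptor, rose by 0.96 (SE 0.24, edgeR adjusted P = 0.0367), and Lpin1, a coactivator of PPARα with PGC-1α, fell by 0.49 (SE 0.11, edgeR adjusted P = 0.0221). With 1 mouse left out, between 0 (without V119) and 3 (without V123) of the 30 passed in atria and between 0 (without V327 or V120) and 2 in ventricles. Rxrg lost its call without V327, V333, V119 or V123, Thrb without any mouse but V120, Perm1 without any but V333, Gabpb2 without any but V327 and V123, Nr4a1 without any but V334 and V123, and Lpin1 without any but V333 and V119, at a highest adjusted P value in such fits between 0.0757 for Gabpb2 and 0.117 for Nr4a1. In the edgeR fit of all libraries together, Nr4a1 had an adjusted P of 0.535 (SE 0.90), Gabpb2 of 0.0996 and Thrb of 0.0640.

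Between chambers the fatty acid, TCA cycle and both mitochondrial DNA lists had larger differences, with most genes higher in ventricles. All 40 genes on the TCA cycle and respiratory chain list were lower in atria in both genotypes, with medians of −1.11 in controls and −1.03 in CUG960 mice. Of 35 fatty acid genes, 29 were lower in atria and 1 higher in controls (median −1.27), and 26 were lower and 2 higher in CUG960 mice (median −0.94). Of 20 genes of mitochondrial DNA expression, 15 were lower and 2 higher in controls and 12 were lower and 2 higher in CUG960 mice, and of 13 mitochondrially encoded mRNAs, 13 and 12 were lower. Over all genes tested, 55.7% and 54.2% differed in either direction. The members with the largest differences in controls included Plin5 (−2.52), the fatty acid binding protein gene Fabp3 (−2.19), Ckmt2 (−1.81), Cox8b of the cytochrome c oxidase complex (−1.71), mt-Co2 (−1.61) and Lrpprc (−1.11), and Ucp2 was higher in atria (2.23). The medians of all genes tested were 0.03 in controls and 0.01 in CUG960 mice.

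Partners and cofactors were split between chambers, with 10 higher and 8 lower in atria in controls and 8 higher and 5 lower in CUG960 mice, of 30 tested. Over all genes 55.7% and 54.2% differed, and the medians of the list were 0.07 and 0.04. Nr2f2, the nuclear receptor that specifies atrial identity, was higher in atria by 2.48 in controls and 2.92 in CUG960 mice on the log2 scale (edgeR, both past the threshold). Perm1 was lower in atria by 1.24 in controls and by 1.64 in CUG960 mice. Rxrg was lower in atria by 1.62 in controls and by 0.99 in CUG960 mice.

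For each regulator, the genes with the most similar pattern over the 12 libraries were found by the root mean square difference of centred log2 CPM, as a description only. Closest to Pparg were Coq10a (0.16 on the log2 scale), Cpt2 (0.16) and Pcdh1 (0.17), where Pparg itself varied by 0.79 around its mean. Cpt2 is the inner carnitine palmitoyltransferase and Coq10a a coenzyme Q binding protein. Closest to Esrrb were Ube2t (0.18), Abhd18 (0.23) and Slc1a1 (0.24), and closest to Esrrg were Clip4 (0.08), Snx13 (0.10) and Prkce (0.10). Tfam was followed most closely, by Rala at 0.03. The nearest gene to Ppargc1b, Klhl31, differed by 0.25, where Ppargc1b itself varied by 0.52 around its mean. Among the 10 themselves, the most different pair was Pparg and Nrf1 (0.95), and the smallest difference was that of Ppard and Esrra (0.17), which themselves varied by only 0.13 and 0.15 around their means, less than they differed from each other. The 12 libraries come from 2 chambers of 6 mice and are therefore not independent points.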

How the data were processed

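Libraries were poly(A)-selected and stranded and were sequenced on an Illumina instrument. The authors aligned reads to GRCm38 and deposited expected counts per gene, estimated with RSEM 1.3.1 (per the labels), as 1 column per library. These values are whole numbers without scaling, 92 of 51826 entries repeat a symbol, and 0 sample columns were left unused. Each comparison was tested with edgeR 4.0.16 in R 4.3.3 (filterByExpr, TMM, glmQLFit and glmQLFTest) on its own 6 libraries, or on all 12 for the interaction, with Benjamini-Hochberg adjustment over all genes tested. A gene rose or fell at an adjusted P value under 0.05. CPM use TMM sizes over the 12 libraries. Intervals are 95% intervals of the fit. CPM per kb use merged exons of GENCODE M21, and the promoter windows come from RefSeq.

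Atria and ventricles of 1 mouse carry the same mouse number, so the number pairs tissues and not genotypes. After group means were removed, the correlation over genes was 0.0364 to 0.283 between libraries of 1 mouse and −0.221 to 0.109 between those of different mice. P values rest on the spread between the 3 mice of each group, with the variance of each gene moderated across all genes. The main chamber and interaction fits had no term for the mouse, although both tissues came from the same mice. The regulators and lists were chosen with earlier results of these data known. The share of Esrrb and Esrrg together joins the regulators that rose in ventricles and is not independent of those calls. Up to 4 genes per list and comparison were named, as those past the threshold with the largest change and a mean of at least 1 CPM. The rule does not cover Cd36, Hadhb, Sdhd, Plin1, Retn and Cfd, which were chosen after seeing their values. Slc25a4, Mfn1 and Mfn2 were named only to describe a list. The fits were also run on simulated data. Alternatives were DESeq2 1.42.0, RLE and upper quartile scaling, no filter, a minimum of 10 counts per library, a single fit of all libraries, a fold change of at least 1.5, the mouse as a block, gene length by the longest transcript, and leaving out each mouse in turn.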

Additional observations from a re-analysis of the deposited data

Results flagged for a closer look

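Rxrg, which encodes the RXRγ partner of the PPARs, changed differently with genotype in the 2 tissues. Atria had 21.8, 22.4 and 25.3 CPM in controls and 30.5, 27.1 and 31.4 CPM in CUG960 mice. Ventricles had 72.0, 75.0 and 65.4 CPM in controls and 55.3, 59.2 and 60.7 CPM in CUG960 mice. Every CUG960 library was above the controls in atria and below them in ventricles. The log2 fold change was 0.36 in atria (edgeR adjusted P = 0.0279) and −0.28 in ventricles (edgeR adjusted P = 0.0568), and the test of the difference gave 0.63 (SE 0.12, 95% interval 0.38 to 0.88, edgeR adjusted P = 0.01997). The difference did not pass without V327 (0.58, adjusted P = 0.112), V333 (0.55, adjusted P = 0.149), V119 (0.58, adjusted P = 0.119) or V123 (0.62, adjusted P = 0.0766), and over all alternatives it was between 0.55 and 0.75. It was 1 of 30 partners and cofactors to pass, against 1.38% of all genes tested, and was looked at because it passed.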

How the results depend on the processing

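With a fold change of at least 1.5 the counts of all genes were 969 in atria, 804 in ventricles, 6098 between chambers in controls and 5900 in CUG960 mice, and 1 regulator passed in ventricles and 2 between chambers in controls. By DESeq2, 2572 genes passed in ventricles and 660 for the interaction. With 1 mouse left out, the counts of all genes lay between 1235 and 2584 in atria, 784 and 1347 in ventricles and 74 and 131 for the interaction, and 1 to 2 regulators passed in ventricles.

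Of the regulators, 0 of those that passed changed sign. Among those that did not pass, the chamber difference of Ppargc1a in CUG960 mice, −0.01 as reported, was 0.0297 with upper quartile scaling, 0.000546 with no filter, 0.0216 with a minimum of 10 counts per library and 0.00748 in the single fit, and the interaction of Ppara was −0.0481 with the mouse as a replicate block. With 1 mouse left out, log2 fold changes with genotype in atria ran from −0.258 to 0.0911 for Ppara, −0.0541 to 0.0473 for Ppard, −0.652 to 0.0262 for Ppargc1b and −0.00988 to 0.425 for Esrrb. In ventricles they ran from −0.259 to 0.180 for Ppara, −0.0861 to 0.361 for Ppargc1b and −0.0505 to 0.0241 for Tfam. Chamber differences ran from −0.427 to 0.0634 for Ppara in controls and from −0.358 to 0.00934 for Ppara and −0.0867 to 0.117 for Ppargc1a in CUG960 mice. Interaction values ran from −0.271 to 0.238 for Ppara, −0.144 to 0.0771 for Ppargc1a and −0.000383 to 0.125 for Esrra. The causes were not tested. With the mouse as a block, the calls of Ppargc1b in controls and Ppard in CUG960 mice changed and no other call of a regulator did. Depth was at least 116127966 counts per library, and each group had 3 mice.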
